A study of Mus musculus with 6 samples.

Results

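H3K9ac peaks in noncoding RNA transcripts were examined in mouse lung endothelial cells, the cells that line the vessels of the lung. A peak belonged to the set when the authors' annotation placed it in a RefSeq transcript of the noncoding kind, so no measured value entered the choice. There were 1163 such peaks among 17901 in the deposited table, against 12779 peaks annotated to coding transcripts and 3959 intergenic peaks. H3K9ac was profiled by CUT&RUN, in which a nuclease tethered to an antibody releases the DNA beneath the marked histone for sequencing. The 2 groups were CSE-KO cells, labelled Cre-pos (3 libraries), and WT cells, labelled Cre-neg (3 libraries). The deleted enzyme, cystathionine gamma-lyase (CSE, gene Cth), produces cysteine. The sources used here give neither the Cre driver nor the age of the mice, and they do not say whether each library came from its own animal. The p-values therefore reflect only how far these libraries differ, part of which may be technical.

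The libraries held 679938 to 1173016 counts over the peaks in CSE-KO and 313610 to 676056 in WT, so each CSE-KO library was deeper than each WT library. No row of the table carried the symbol Cth, so the labels could not be checked at the deleted gene. Of 21 endothelial marker genes, 20 had a peak, and Vwf had none. A peak was present for 5 of 11 epithelial, 1 of 10 leukocyte and 1 of 12 fibroblast and mural markers. The summed level of the endothelial markers was 3767 to 4214 CPM (TMM-normalized counts at a common library size) in CSE-KO libraries and 4032 to 4472 CPM in WT libraries. That of the epithelial markers was 289.7 to 331.7 CPM in CSE-KO libraries and 319.9 to 350.0 CPM in WT libraries, and their part in the results was not tested. The names of the deposited normalized columns carry a different numeric prefix in each group, and a batch effect that coincided with genotype cannot be told apart from it.

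Noncoding RNAs act without being translated. Long noncoding RNAs (lncRNAs) include scaffolds of nuclear bodies such as Neat1, regulators of X inactivation such as Jpx and Ftx, and hosts from which microRNAs or small nucleolar RNAs (snoRNAs) are cut. MicroRNAs pair through a short seed with messenger RNAs and repress them, and snoRNAs guide the modification of ribosomal RNA. Many lncRNAs start head to head with a protein-coding gene, and some transcripts in the noncoding class are untranslated isoforms of coding genes. H3K9ac marks histone H3 at promoters and enhancers in use, and it reports on the chromatin of a locus, not on the level of its RNA.

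Promoter windows of 3 lncRNAs are shown because their peaks were among those with the smallest p of the well-covered peaks, with groups that did not overlap. Each runs from 250 bases before to 50 bases after the start, 5′ to 3′, from RefSeq on GRCm38.p6. Chaserr is at chr7:73558346-73558645 on the minus strand, 6030443J06Rik at chr5:22550163-22550462 on the plus strand, and 1500026H17Rik at chr10:89686113-89686412 on the plus strand. Capitals mark the GC box (GGGCGG or CCGCCC) and the CCAAT box (CCAAT or ATTGG), and the TATA letters searched for (TATAAA or TTTATA) were in none of the 3.
Chaserr: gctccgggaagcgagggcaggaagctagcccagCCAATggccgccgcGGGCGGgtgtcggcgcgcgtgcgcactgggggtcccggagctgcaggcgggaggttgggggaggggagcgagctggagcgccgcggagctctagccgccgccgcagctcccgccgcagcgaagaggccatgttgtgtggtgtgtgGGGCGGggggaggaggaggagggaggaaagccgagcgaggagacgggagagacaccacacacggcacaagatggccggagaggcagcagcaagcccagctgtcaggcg
6030443J06Rik: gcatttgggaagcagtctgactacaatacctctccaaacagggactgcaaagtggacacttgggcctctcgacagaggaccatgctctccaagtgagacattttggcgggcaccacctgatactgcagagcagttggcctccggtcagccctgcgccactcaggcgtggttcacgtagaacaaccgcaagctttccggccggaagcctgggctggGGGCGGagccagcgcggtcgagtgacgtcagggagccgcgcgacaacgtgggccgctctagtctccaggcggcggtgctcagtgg
1500026H17Rik: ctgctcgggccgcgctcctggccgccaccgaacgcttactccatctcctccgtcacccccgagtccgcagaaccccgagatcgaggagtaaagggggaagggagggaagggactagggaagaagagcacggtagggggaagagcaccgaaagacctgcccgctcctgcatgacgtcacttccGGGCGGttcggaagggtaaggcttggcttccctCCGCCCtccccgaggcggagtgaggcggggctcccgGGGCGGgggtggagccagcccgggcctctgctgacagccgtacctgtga
The GC box letters occurred 2 times in the Chaserr window, 1 time in that of 6030443J06Rik and 3 times in that of 1500026H17Rik. The windows of Chaserr and 6030443J06Rik lie within their peaks. The 1500026H17Rik peak ends at chr10:89686232, so it overlaps only the first part of its window. The start and all 3 GC boxes of 1500026H17Rik lie outside that peak. A window in the RefSeq table was found for 675 of the 952 genes, and 477 windows overlapped a peak of the set. The GC box letters were in 63.5% of those windows, against 35.7% of all 32851 windows. The CCAAT letters were in 36.3% of them, against 37.4% of all windows, and the TATA letters were in 5.87%, against 13.6%. The median ratio of observed to expected CpG was 0.804 in the overlapping windows and 0.384 in all windows. Of the 477 windows, 277 belonged to lncRNA genes and 200 to protein-coding genes. Windows at peaks of coding transcripts were not compared, so nothing particular to noncoding transcripts is read from these shares. These matches describe the letters only.

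Mature microRNAs of the loci described below are shown with the seed (bases 2 to 8) in capitals, since the H3K9ac peaks at their genes or hosts are described by value further on. Mir100 and Mir125b-1 lie in Mir100hg on chromosome 9, Mir99a, Mirlet7c-1 and Mir125b-2 in Mir99ahg on chromosome 16, Mirlet7i on chromosome 10, and Mir22 in Mir22hg on chromosome 11.
mmu-miR-100-5p: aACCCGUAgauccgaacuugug
mmu-miR-99a-5p: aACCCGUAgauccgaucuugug
mmu-let-7i-5p: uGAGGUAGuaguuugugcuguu
mmu-let-7c-5p: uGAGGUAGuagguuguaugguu
mmu-miR-125b-5p: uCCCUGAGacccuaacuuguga
mmu-miR-22-3p: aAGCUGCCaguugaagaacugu
miR-100 and miR-99a share the seed ACCCGUA, let-7i and let-7c share GAGGUAG, and both miR-125b loci give the same mature RNA. Mature sequences were found in RefSeq for 65 of the 74 microRNA genes annotated at a peak.

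Introns held the most peaks, 549 of the 1163, followed by promoters (404, labelled promoter-TSS), exons (160) and transcript ends (50, labelled TTS). Matching the annotated transcripts to RefSeq put 636 peaks in lncRNA genes, 355 in noncoding isoforms of protein-coding genes, 119 in small RNA genes and 43 in transcribed pseudogenes, while 2 lay in other RNA genes and 8 were not matched. The small RNA genes were 85 peaks of microRNAs, 28 of snoRNAs, 4 of small nuclear RNAs and 2 of guide RNAs. Small RNA genes had 77 of their peaks at promoters, and isoforms of coding genes had 226 of theirs in introns.

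**Figure D1:**
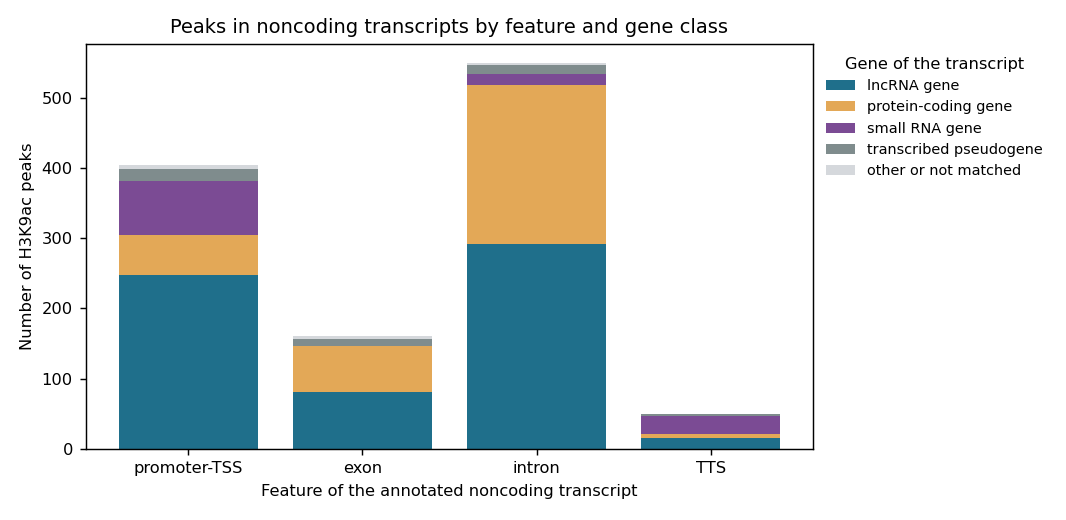
Number of H3K9ac peaks (y axis) in each feature of a noncoding transcript (x axis), stacked by the class of its gene. Introns (549) and promoters (404) hold most peaks, and lncRNA genes are the largest class in promoters (248), exons (81) and introns (292).

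The gene symbol in the deposited table is that of the nearest start, which was often another gene. It named the gene of the annotated transcript at 771 of 1155 matched peaks and a different, protein-coding gene at 303. At lncRNA promoters the symbol was the lncRNA for 115 of 248 peaks and a coding gene for 127. Starts of both genes were found for 96 of those 127, and 93 were divergent, with a median gap of 120 bp between the starts. Both starts lay inside the peak at 62 of the 93, so the acetylation there cannot be assigned to either direction of transcription. For noncoding isoforms of coding genes, the symbol was that same gene at 292 of 355 peaks. Acetylation at those peaks cannot be assigned to the noncoding isoform rather than to the coding transcripts. Peaks are named below by the annotated transcript, or by the deposited symbol where the transcript was not matched.

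Most peaks lay where RefSeq places the gene of their transcript. Of the 1155 matched peaks, 1015 overlapped the gene, 113 lay within 1 kb of it, and 27 lay farther away, 25 of them on another chromosome. Transcripts of Mir5098 accounted for 7 of the 27, Mir466p for 4, and Mir466o and Bc1 for 3 each. Pseudogene transcripts accounted for others. The peak annotated to Gm12191 lay at the ribosomal protein gene Rpl30, that of Gm15772 at Rpl26, that of Gm10052 at Cbx5 and Hnrnpa1, and that of Gm5424 at Ass1, the argininosuccinate synthase gene. For these the identity of the marked gene is uncertain.

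Median levels per length of peaks in noncoding transcripts lay close to those in coding transcripts. The median mean level was 62.0 CPM per kb at noncoding promoters, against 58.7 CPM per kb at coding promoters. It was 56.5 against 55.0 CPM per kb in exons, 50.02 against 52.3 in introns and 57.7 against 53.4 at transcript ends. Within the set, the middle 50% of promoters ranged from 47.9 to 77.4 CPM per kb and that of introns from 39.0 to 64.3, so the features overlapped widely. Promoter peaks were also wider, with a median of 1130 bp, against 726 bp in introns. Intronic peaks lay a median of 6677 bp from the nearest start.

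**Figure D2:**
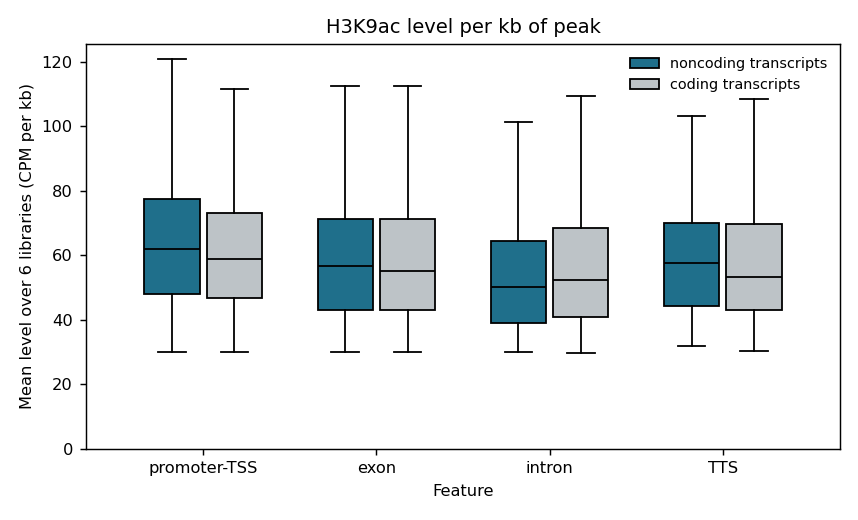
Mean level over the 6 libraries in CPM per kb of peak (y axis) by feature (x axis), for peaks of noncoding transcripts (left box of each pair) and coding transcripts (right box). Boxes are quartiles, lines medians and whiskers reach 1.5 times the box, with values beyond them not drawn. The boxes of each pair overlap, with medians of 62.0 and 58.7 at promoters.

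The share of all counts that fell in peaks of noncoding transcripts was 7.44% ± 0.047 in CSE-KO and 7.46% ± 0.053 in WT (SD, n = 3 each). By library it was 7.40%, 7.49% and 7.43% in CSE-KO, against 7.52%, 7.42% and 7.44% in WT. The groups overlapped, and their means differed by less than the spread within either group. In bulk cells, fewer cells with a mark and less mark per cell cannot be told apart.

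Loss of CSE was set against WT to ask which noncoding loci differ in H3K9ac. Of the 1163 peaks, 1065 passed the filter on low counts, and 1 of them was called at an adjusted p under 0.05, lower in CSE-KO, with 0 higher. Over all 16134 tested peaks 14 were called, which is 0.0868% (0.0248% higher and 0.062% lower in CSE-KO). At an unadjusted p under 0.05 there were 67 of the 1065 peaks, or 6.29% (25 higher and 42 lower in CSE-KO), against 7.08% of all tested peaks (3.01% higher and 4.07% lower). The groups did not overlap at 137 of the 1065, or 12.9% (59 higher and 78 lower in CSE-KO), against 13.0% of all tested peaks (6.09% higher and 6.9% lower). The log2 fold change was below 0 at 554 of the 1065, or 52.0%, against 50.1% of all tested peaks. These shares of the pooled set are near those of the whole table and show nothing particular to noncoding transcripts. By feature, the groups did not overlap at 11.1% of 388 tested promoters and 11.4% of 149 exons. The same held at 14.0% of 480 introns and 20.8% of 48 transcript ends. In that order, 54.1%, 57.0%, 50.2% and 37.5% lay below 0, with medians of -0.024, -0.031, -0.00046 and 0.049. Differences between features were not tested, and transcript ends were the fewest. The median log2 fold change of CSE-KO over WT was -0.0089 over the set and -0.00034 over all tested peaks, and 86.7% of the set lay within 0.5 of 0. In the authors' deposited table, 0 peaks of the set had an adjusted p under 0.05, and 62 had a p under 0.05.

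**Figure D3:**
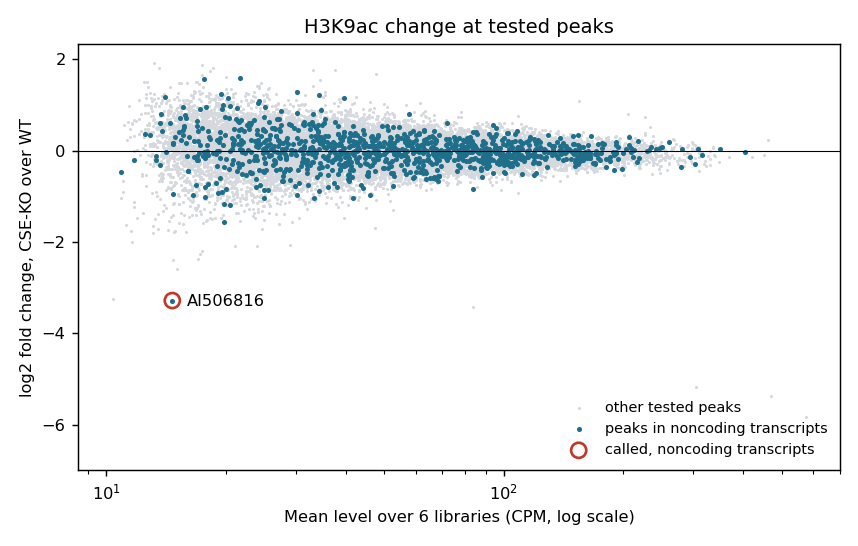
log2 fold change of CSE-KO over WT (y axis) against the mean level over 6 libraries in CPM (x axis, log scale) for the tested peaks, with the 1065 of noncoding transcripts in blue and the others in grey. The 1 called peak of the set, AI506816 at -3.28, is ringed, and the rest spread around 0 and more widely at low levels.

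AI506816, a lncRNA gene of chromosome 5, held the called peak at chr5:23705356-23705821 on GRCm38, in intron 3 of 4. Its level was 0, 0 and 8.69 CPM in CSE-KO libraries, against 22.2, 35.5 and 21.4 CPM in WT libraries. Those levels rest on 0, 0 and 6 counts in CSE-KO and 15, 11 and 13 counts in WT. All 3 CSE-KO libraries lay below all 3 WT libraries. The log2 fold change was -3.28 ± 0.72 (SE), with an adjusted p of 0.045 by edgeR's quasi-likelihood test. The peak lies in an endogenous retrovirus of the MuLV-int kind, a repeat with near-identical copies, and the sources used here do not say how reads matching several copies were placed, so the origin of these reads is uncertain. The adjusted p was 0.909 with DESeq2 and 0.0867 without the filter. It was 0.152 to 0.617 when any library other than CSE-KO replicate 3 was left out, and 0.0043 without CSE-KO replicate 3. The log2 fold change was -2.48 when CSE-KO replicate 1 was left out and -7.14 without the third CSE-KO library, where both remaining CSE-KO libraries are at 0 and the fitted value depends on the prior count.

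Peaks of at least the median level whose groups did not overlap, 6 in each direction by the smallest unadjusted p, are described next, and none of the 12 passed the adjusted threshold. Among those lower in CSE-KO, 6030443J06Rik starts beside Orc5, which encodes a subunit of the origin recognition complex. Its promoter peak measured 57.5, 62.9 and 57.9 CPM in CSE-KO, against 71.2, 119.6 and 131.6 CPM in WT. The log2 fold change was -0.83 ± 0.24 (SE), with an unadjusted p of 0.0011 and an adjusted p of 0.365. The CSE-KO libraries lay close together and the WT libraries were spread. Chaserr, a lncRNA known in mice for regulating the neighbouring chromatin remodeller gene Chd2, measured 255.6, 239.8 and 243.3 CPM in CSE-KO, against 354.4, 284.4 and 301.1 CPM in WT. Its log2 fold change was -0.36 ± 0.14 (adjusted p = 0.596).

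The other 4 lower peaks were those of 4930557F10Rik, 1600023N17Rik, Btbd19 and a noncoding isoform of Nfe2l2, which encodes the antioxidant regulator NRF2. Acetylation at Nfe2l2 cannot be assigned to the isoform alone, since the peak lies in a CpG island 858 bp from the nearest start. The Nfe2l2 peak measured 169.2, 194.4 and 149.2 CPM in CSE-KO, against 229.8, 216.5 and 228.7 CPM in WT. The log2 fold changes of these 4 ran from -0.77 for 4930557F10Rik to -0.40 for Nfe2l2, with adjusted p of 0.596 for each. The 1600023N17Rik groups were separated by a narrow margin, since its highest CSE-KO library had 120.2 CPM and its lowest WT library 121.6 CPM. At Btbd19 the highest CSE-KO and the lowest WT library both rounded to 186.8 CPM. The annotated transcript of the Btbd19 peak was not matched, so it is named by the gene of the nearest start.

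Among the 6 peaks higher in CSE-KO, 1500026H17Rik starts beside Scyl2, a gene of vesicle traffic. Its peak measured 76.2, 76.0 and 73.9 CPM in CSE-KO, against 50.4, 22.6 and 47.7 CPM in WT. The log2 fold change was 0.81 ± 0.28 (SE; adjusted p = 0.499). WT replicate 2, the shallowest library, held 7 counts here and was the lowest. Gm15559, beside the chromatin remodeller gene Ep400, measured 114.2, 117.0 and 102.8 CPM in CSE-KO, against 91.9, 80.8 and 56.0 CPM in WT, a log2 fold change of 0.55 ± 0.22 (adjusted p = 0.629). The other 4 were Zdhhc21 (0.60 on the log2 scale), Bloc1s6os (0.55), Mir5619 (0.44) and 1700055D16Rik (0.33), with adjusted p from 0.637 to 0.740. Zdhhc21 encodes a palmitoyltransferase, and Bloc1s6os is antisense to Bloc1s6, a gene of lysosome-related organelles, so reads cannot be assigned to either strand there.

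**Figure D4:**
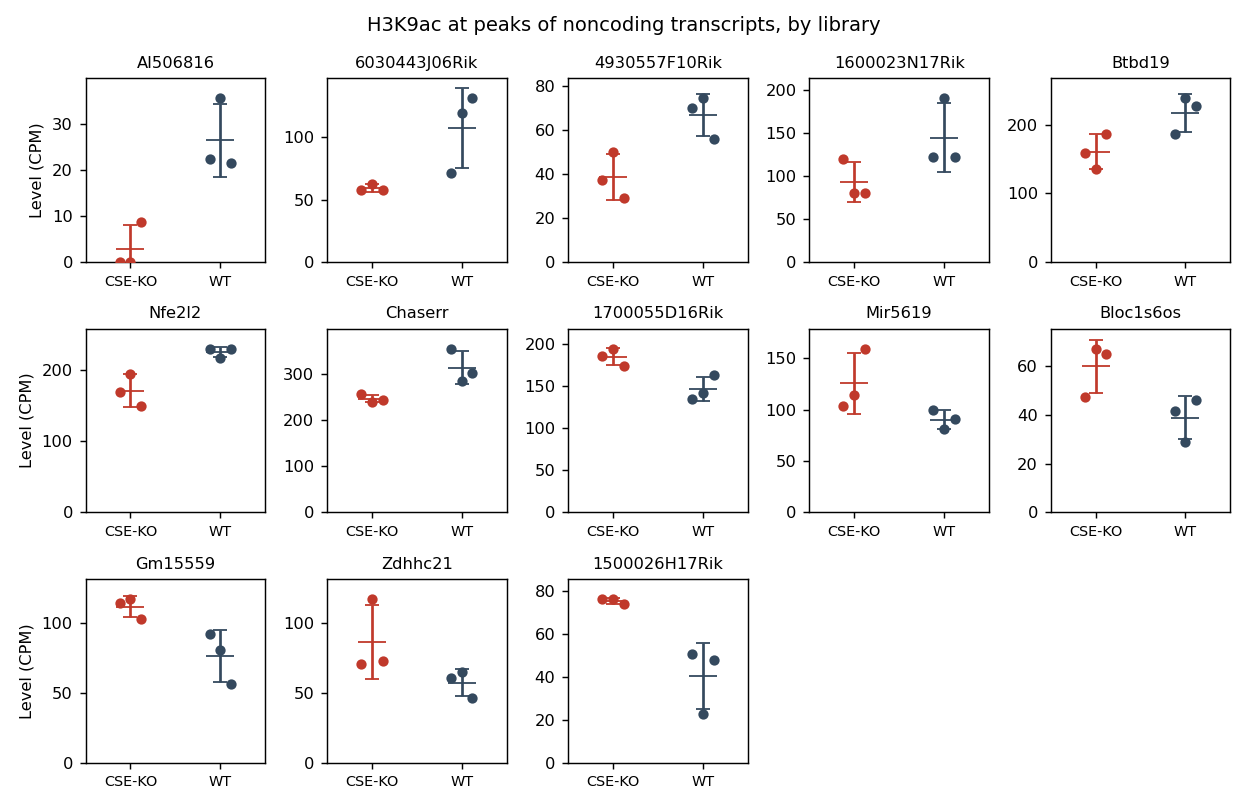
Level in CPM (y axes, each from 0) of the called peak and the 12 peaks chosen by smallest p, in CSE-KO (left, red) and WT (right, blue) libraries. Points are libraries, the dash is the mean and bars are the SD over 3 libraries, cut off at 0. The groups of each panel do not overlap, and in AI506816 the CSE-KO libraries are at 0, 0 and 8.69.

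The highest levels in the set were found at Arrdc3, Ino80dos, 2310010J17Rik, Gm6634, Snhg15 and Aopep. The promoter of Arrdc3, an arrestin-domain gene, averaged 400.5 ± 33.5 CPM in CSE-KO and 409.4 ± 30.3 CPM in WT (SD, n = 3 each). Ino80dos, antisense to a gene of the INO80 remodelling complex, averaged 355.7 ± 20.6 CPM in CSE-KO and 345.1 ± 42.9 CPM in WT. These groups overlapped. Snhg15, a snoRNA host, measured 235.3, 285.1 and 295.4 CPM in CSE-KO, against 354.4, 345.8 and 301.1 CPM in WT. Its groups did not overlap, with a log2 fold change of -0.30 ± 0.14 and an adjusted p of 0.666. The SE of the log2 fold change was 0.12 to 0.14 at these 6 peaks, against a median of 0.28 over the set.

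In the lists of noncoding genes, a peak was counted when its annotated transcript or its nearest start belonged to a listed gene. Well-studied lncRNAs had such a peak for 20 of the 55 genes listed. Of the 36 tested peaks 0 were called, against 0.0868% of all tested peaks. At an unadjusted p under 0.05 there were 2 of the 36, against 7.08% of all tested peaks, and the median log2 fold change was -0.012, against -0.00034 over all tested peaks. Malat1, an abundant nuclear lncRNA, averaged 124.3 ± 15.9 CPM in CSE-KO and 131.1 ± 38.8 CPM in WT. Neat1, the scaffold of paraspeckles, measured 110.0, 70.2 and 94.1 CPM in CSE-KO, against 109.7, 96.9 and 131.6 CPM in WT. Its log2 fold change was -0.30 ± 0.21 (adjusted p = 0.802), and the groups overlapped. Norad, which binds Pumilio proteins, averaged 168.4 ± 15.1 CPM in CSE-KO and 175.1 ± 22.05 CPM in WT. The growth-arrest transcript Gas5 averaged 206.8 ± 15.7 CPM in CSE-KO and 232.0 ± 14.5 CPM in WT.

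Genes of X inactivation and imprinting were among them. Ftx, an activator of Xist, had a peak at 43.2, 26.3 and 20.3 CPM in CSE-KO, against 48.9, 90.5 and 36.2 CPM in WT. The groups overlapped, with a log2 fold change of -0.81 ± 0.34 and an adjusted p of 0.637. It was -0.46 without WT replicate 2 and -1.23 without CSE-KO replicate 1. The second Ftx peak, nearer its start, averaged 28.6 ± 2.1 CPM in CSE-KO and 34.4 ± 10.8 CPM in WT, with overlapping groups and a log2 fold change of -0.26 ± 0.36 (adjusted p = 0.920) that was 0.038 without WT replicate 1. Jpx, another activator of Xist, averaged 85.4 ± 3.0 CPM in CSE-KO and 76.2 ± 19.1 CPM in WT. Kcnq1ot1, which silences an imprinted cluster, averaged 57.9 ± 8.4 CPM in CSE-KO and 59.5 ± 27.7 CPM in WT. The peak in exon 4 of Tsix, whose deposited symbol is Xist, was not tested and held 16, 8 and 7 counts in CSE-KO, against 7, 4 and 10 in WT. At a common library size these were 13.5, 11.7 and 10.1 CPM in CSE-KO, against 10.4, 12.9 and 16.5 CPM in WT, with overlapping groups. In all, 27 peaks of the set were X-linked, and of 24 tested 3 had an unadjusted p under 0.05, against 7.08% of all tested peaks, with a median log2 fold change of 0.12, against -0.00034 over all tested peaks. The sources used here do not give the sex of the mice. A peak on chromosome Y held 24, 21 and 11 counts in CSE-KO, against 9, 4 and 5 in WT, and the part of sex in the X-linked values was not tested. Those chromosome Y counts are not adjusted for depth, and each CSE-KO library was deeper than each WT library.

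SnoRNA host genes had a peak at 16 of 29 listed genes, and of 15 tested peaks 0 were called, 2 had an unadjusted p under 0.05 and 11 had a negative log2 fold change. Over all tested peaks 0.0868% were called, 7.08% had an unadjusted p under 0.05 and 50.1% were below 0. The median of the 15 was -0.080, against -0.00034 over all tested peaks, and nothing particular to the list is read from these counts. The 2 were Chaserr and Snhg15. Chaserr stood in this list although its known role is the regulation of Chd2. Zfas1 went the other way, averaging 160.9 ± 11.7 CPM in CSE-KO and 145.7 ± 14.8 CPM in WT, with overlapping groups.

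MicroRNA hosts and genes had a peak at 10 of 59 listed genes, and of 22 tested peaks 0 were called, 1 had an unadjusted p under 0.05 and 9 lay below 0, set against the same 0.0868%, 7.08% and 50.1% of all tested peaks. The promoter peak of Mirlet7i, the gene of let-7i shown above, averaged 185.4 ± 12.8 CPM in CSE-KO and 167.7 ± 24.9 CPM in WT. Mir22hg, the host of miR-22, averaged 144.0 ± 3.7 CPM in CSE-KO and 167.8 ± 27.4 CPM in WT. Both pairs of groups overlapped. Mir99ahg, the host of miR-99a, let-7c and a copy of miR-125b, measured 104.9, 114.0 and 107.2 CPM in CSE-KO, against 114.2, 135.7 and 136.6 CPM in WT. Its groups were apart by a small margin (log2 fold change -0.24 ± 0.19, adjusted p = 0.839).

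Structural RNA genes had a peak at 7 of 30 listed genes, all 7 tested and 0 called (0.0868% of all tested peaks), with log2 fold changes from -0.085 to 0.20. Rmrp, the RNA of RNase MRP, averaged 64.5 ± 2.8 CPM in CSE-KO and 63.4 ± 17.3 CPM in WT. Rnu12, a small nuclear RNA of the minor spliceosome, averaged 174.4 ± 11.3 CPM in CSE-KO and 177.7 ± 47.9 CPM in WT. Promoters of proteins that work with these RNAs were read from the same fit. Of 13 tested promoter peaks of paraspeckle partners, 13 of snoRNP proteins, 15 of microRNA processing proteins and 9 of Xist partners, 0 were called. Hnrnpk stood in both the paraspeckle and the Xist list. Over all tested peaks 0.0868% were called and 7.08% had an unadjusted p under 0.05, and nothing particular to these lists is read from the counts. The 1 at an unadjusted p under 0.05 was Ran, the exportin cofactor, at 143.0 ± 22.5 CPM in CSE-KO and 189.5 ± 45.0 CPM in WT, with overlapping groups.

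Most genes had a single peak (831 of 952), and Pvt1 had the most, with 11 over 201 kb. Pvt1 is a lncRNA beside Myc. Its promoter measured 225.1, 223.7 and 170.9 CPM in CSE-KO, against 170.5, 197.1 and 264.9 CPM in WT, with overlapping groups. Summed over its 11 peaks the level was 668.6 ± 28.5 CPM in CSE-KO and 690.1 ± 57.0 CPM in WT. An intronic peak of Pvt1 about 40 kb from the start, chosen after its values were seen, had the smallest p of the 11, at 75.8 ± 10.6 CPM in CSE-KO and 112.2 ± 38.1 CPM in WT (adjusted p = 0.682).

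Mir100hg, the host of miR-100 and a copy of miR-125b, had 8 peaks over 165 kb that summed to 295.8 ± 32.1 CPM in CSE-KO and 304.0 ± 29.5 CPM in WT. Its exon 5 peak, chosen after its values were seen, measured 15.2, 13.2 and 8.69 CPM in CSE-KO, against 37.1, 16.2 and 28.0 CPM in WT. The groups did not overlap, and the log2 fold change was -1.16 ± 0.45 (adjusted p = 0.617). The peak at the end of Mir125b-1 averaged 162.2 ± 2.4 CPM in CSE-KO and 146.5 ± 32.1 CPM in WT. The lncRNA 2610307P16Rik also had 8 peaks, which summed to 267.2 ± 9.3 CPM in CSE-KO and 264.7 ± 18.7 CPM in WT. Its peak of smallest p, in intron 1 and chosen after its values were seen, measured 50.8, 58.5 and 59.4 CPM in CSE-KO, against 74.1, 71.1 and 98.7 CPM in WT. Those groups did not overlap, and the log2 fold change was -0.56 ± 0.25 (adjusted p = 0.659).

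Among loci of 5 or more peaks, the smallest p in each of the others was seen in an intron of Pitpnc1, a phosphatidylinositol transfer protein gene, at 42.5 ± 14.7 CPM in CSE-KO and 17.8 ± 5.7 CPM in WT (log2 fold change 1.28 ± 0.39, adjusted p = 0.424), in 2210408F21Rik (1.24 on the log2 scale), D5Ertd615e (1.18), Gm12610 (0.91), Lncpint (-0.47) and Gm15270 (0.13). None of these passed the threshold, and they were chosen after their values were seen. Lncpint, a p53-induced lncRNA, averaged 19.5 ± 7.3 CPM in CSE-KO and 26.3 ± 16.2 CPM in WT at that peak. The named peaks of 2210408F21Rik and D5Ertd615e averaged 27.1 and 19.9 CPM in CSE-KO, against 11.7 and 8.2 CPM in WT. Each locus held tested peaks in both directions. Log2 fold changes ran from -0.11 to 1.28 in Pitpnc1, -0.41 to 1.24 in 2210408F21Rik and -0.85 to 1.18 in D5Ertd615e. They ran from -0.39 to 0.91 in Gm12610, -0.47 to 0.17 in Lncpint and -0.14 to 0.13 in Gm15270.

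**Figure D5:**
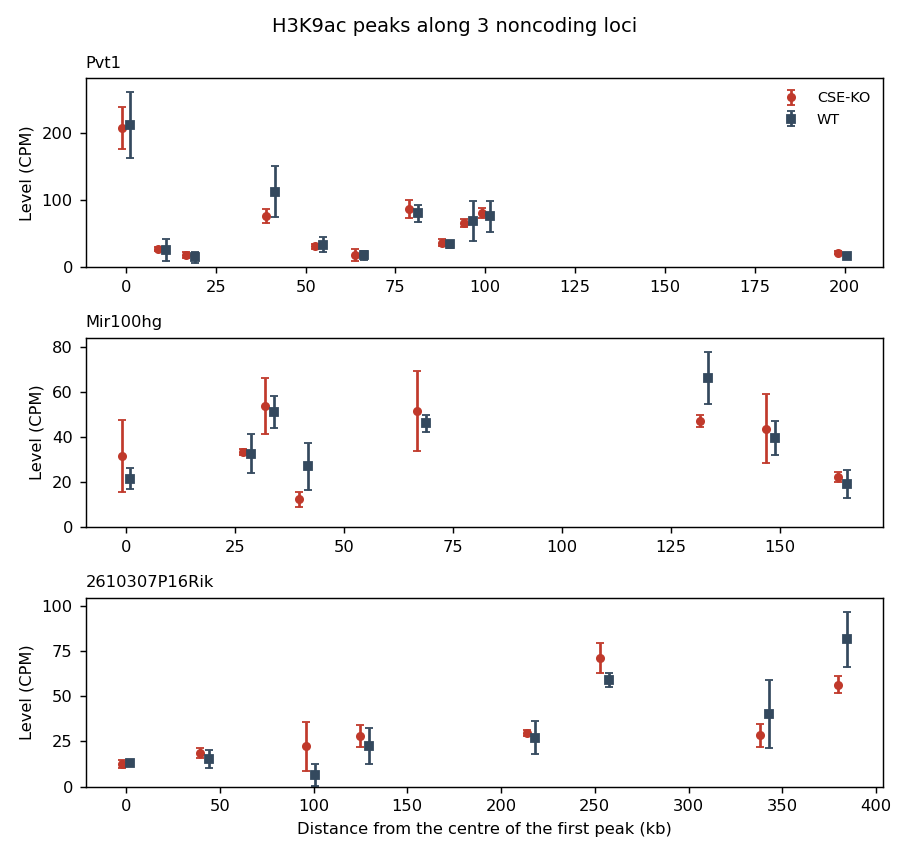
Level in CPM (y axis) of each peak of Pvt1, Mir100hg and 2610307P16Rik against the distance from the centre of the first peak in kb (x axis), as mean and SD over 3 libraries for CSE-KO (red circles, drawn slightly left) and WT (blue squares). The first peak of Pvt1 is its highest, and the libraries of the groups do not overlap at 0 of 11 tested peaks of Pvt1, 2 of 8 of Mir100hg and 2 of 6 of 2610307P16Rik (and 1 of its 2 untested peaks), against 13.0% of all tested peaks.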

How the data were processed

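H3K9ac CUT&RUN was measured in 3 CSE-KO and 3 WT libraries, grouped by their titles. Tools listed in the submitters' processing notes are STAR 2.7.11a, Trimmomatic 0.39, featureCounts, Picard 3.1.1 and DESeq2 1.36.0, and no peak caller is named there. The authors deposited 1 table of peaks with raw counts per library, RPKM values, used here for the implied library totals, and the authors' own fold changes and p-values, while 6 further normalized columns were not used. The notes name mm39, but the coordinates follow GRCm38.

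The test was the two-sided quasi-likelihood F test of edgeR 4.0.16 in R 4.3.3, with TMM factors, peaks kept by filterByExpr (minimum count 10), Benjamini-Hochberg adjustment over all 16134 tested peaks and a threshold of 0.05. SE came from the F statistic. Levels are CPM after TMM. The test script was tested on counts simulated at the common dispersion. It recovered 44 of 100 planted log2 changes of 1 and 100 of 100 of 2, with 6 false calls among 16112 tested peaks. Transcripts were matched to RefSeq genes on GRCm38.p6. No 2 replicates agreed within counting error, with a chi-square of 1.91 to 2.14 for each degree of freedom.

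Named peaks are every called peak, 6 per direction of smallest p at or above the median level with groups that do not overlap, the 6 highest, up to 6 per gene list, and the highest per feature. Others are said to be chosen after their values were seen, which also holds for Neat1, Ftx, Jpx, Kcnq1ot1, Tsix and Ran. The members and lists were chosen with earlier results of these data known. Alternatives were other size factors and totals, DESeq2 1.42.0, voom (limma 3.58.1), other filters, MuLV-int peaks left out, a replicate block and each library left out.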

Additional observations from a re-analysis of the deposited data

How the results depend on the processing

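The calls rest on few peaks. Peaks called over the whole table numbered 9 with DESeq2, 2 with MuLV-int peaks left out, 8 at a mean count of 50 or more, and 6 to 13 with 1 library left out, against 14. In noncoding transcripts 0 were called with DESeq2, with MuLV-int peaks left out (which removes AI506816), at a mean count of 50 or more and without the filter, and 0 to 1 with 1 library left out. The cause was not tested where no reason is given. The median log2 fold change of the set was 0.0099 with library size alone, 0.0066 at a mean count of 50 or more, and -0.019 to -0.0040 with 1 library left out. The share of counts was 6.88% ± 0.041 in CSE-KO and 6.98% ± 0.107 in WT (SD, n = 3 each) with the totals implied by the RPKM values. The groups still overlapped. Their means then differed by -0.096, which is more than the SD in CSE-KO and less than that in WT. The signs of 63 peaks were followed, among them some of small p that are not described above. Of these, 40 kept their sign in all 15 alternatives that could be fitted for them, and 0 gained a call. Many of the 63 were picked for a small p or for groups that did not overlap. A kept sign was likely for those beforehand and is no support for them. Signs reversed for Arrdc3 (0.0066 at a mean count of 50 or more), Hnrnpu (-0.00023 with DESeq2, -0.00098 without the filter), the Pvt1 promoter (0.0074 with voom, 0.0045 at a mean count of 50 or more), Rmrp (0.0098 with library size alone) and Rnu11 (0.011 with library size alone). With 1 library left out, log2 fold changes ran from -0.20 to 0.0066 for 2310010J17Rik, -0.021 to 0.15 for Ino80dos, -0.093 to 0.039 for Arrdc3, -0.0052 to 0.058 for Gm6634, -0.070 to 0.092 for Hnrnpu, -0.32 to 0.11 for Lncpint (intron 3 peak), -0.023 to 0.21 for Mir125b-1, -0.30 to 0.063 for Malat1, -0.14 to 0.0197 for Norad, -0.30 to 0.057 for Morrbid, -0.19 to 0.19 for Pvt1, -0.061 to 0.21 for Sfpq, -0.023 to 0.21 for Snhg9, -0.24 to 0.075 for Rnu3a, -0.18 to 0.19 for Rnu12, -0.22 to 0.23 for Scarna2, -0.13 to 0.23 for Rmrp, -0.20 to 0.23 for Rnu11, -0.011 to 0.17 for B930059L03Rik, -0.061 to 0.29 for Gm15270, -0.93 to 0.21 for Lncpint (intron 2 peak), -0.51 to 0.038 for the Ftx peak nearer its start, -0.19 to 0.41 for Kcnq1ot1. Deviations of same-numbered libraries from their group means had correlations of 0.065, 0.014 and 0.0051. Those of differently numbered libraries ran from -0.036 to 0.019. With 3 libraries in each group this check cannot show whether the numbers pair the libraries. With the replicate block 15 peaks were called, 1 of them in the set, and Rmrp was at 0.027. Restricting the set to the 1034 tested peaks in or within 1 kb of their RefSeq gene, an alternative chosen after seeing the data, left 1 call. The shallowest library, WT replicate 2, held 313610 counts.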
